A study of Mus musculus with 13 samples.

Results

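The mitochondrial ribosome makes the proteins that the mitochondrial genome encodes, all of them parts of the respiratory chain and ATP synthase. Its RNAs come from the mitochondrial genome, whereas its proteins are encoded in the nucleus, made in the cytosol and imported. The large subunit joins amino acids and guides the new chain to the inner membrane, and the small subunit reads the messenger RNA. Compared with bacterial ribosomes it has less RNA and more protein, and many of its proteins have no bacterial counterpart. The members described here were the rows of a gene-level table whose names begin with Mrpl or Mrps and a number. There were 76 of them among 23236 rows, 47 named for the large subunit (Mrpl) and 29 for the small (Mrps), on 17 chromosomes.

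All 13 samples of the series come from C2C12, a line of mouse myoblasts able to fuse into myotubes in low serum. The comparison is between 2 RNA-seq libraries labelled as myoblasts, siLinc-Yy1 and siNC. Their titles read as an siRNA against the long noncoding RNA Linc-Yy1 and a control siRNA, although the labels spell out neither, and the comparison asks which transcripts differ when Linc-Yy1 is targeted. Other RNA-seq and ChIP-seq samples were not analysed here. Each condition has 1 library of poly(A)-selected RNA, so there is no replicate check, and every difference below describes these libraries only. A lower value could come from fewer cells expressing a gene or from less RNA per cell, which cannot be told apart.

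The labelled cell type was checked against its markers. The 6 myoblast markers were all expressed, for example Myod1 at 67.0 FPKM in siLinc-Yy1 and 62.5 FPKM in siNC, where FPKM is fragments scaled to transcript length and library size. Of 4 myotube markers 3 were higher in siLinc-Yy1 and 1 was lower. Ckm measured 24.9 FPKM in siLinc-Yy1 and 14.5 FPKM in siNC, and Myh3 1.85 and 3.08 FPKM in that order. The authors' deposited table called both Ckm and Myh3 as changed, as it did 1.45% of the rows with a mean of at least 1 FPKM. The part of these markers in the results was not tested. Of 6 markers of blood, epithelial, endothelial, glial and fat cells, none reached a mean of 1 FPKM. The targeted RNA, lincYy1, was at 0.227 FPKM in siLinc-Yy1 and 0.360 FPKM in siNC, and the authors' deposited table gave it a q-value of 0.878, so its level does not check the label.

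Mitoribosomal protein genes stood at nearly equal levels in both libraries. Their median was 36.4 FPKM in siLinc-Yy1 and 35.2 FPKM in siNC. The change of each gene was taken as log2 of the ratio of siLinc-Yy1 over siNC after 1 FPKM was added to each value, which understates the change of low genes. Its median over the 76 members was 0.033, against -0.021 over the 11792 rows with a mean of at least 1 FPKM, a filter that all members passed. Members ranged from -0.39 to 0.44, with 45 above 0 and 31 below, where 45.4% of all rows were above 0. The direction of this median depends on scaling. With both libraries rescaled to equal summed FPKM, the median of all rows moved to -0.30 and that of the members to -0.28, so relative to all genes the members stayed slightly above.

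With the values as deposited, few members differed by much. A value at least 25% higher in siLinc-Yy1, with 1 FPKM added, was found for 3 members, or 3.95%, and for 7.79% of all rows. All 3 had means between 100 and 200 FPKM, where 439 other rows had quartiles of 0.19 and 0.38 on the log2 scale. The share of all rows thus understates how common such a value was at that level. A value at least 20% lower, the same fold in the other direction, was found for 1 member, or 1.32%, and for 4.12% of all rows. At equal summed FPKM these counts were 0 higher and 31 lower, and the scaling between the libraries is not known. The median of all rows was then -0.30, itself close to a value 20% lower. The share of all rows past each cutoff was not computed at that scaling, so the 31 are not set against other genes. As deposited, no member reached 1.5-fold, which 3.28% of rows did upward and 0.517% downward, and none reached 2-fold, which 1.39% did upward and 0.178% downward. These shares are over rows of all levels, and shares among rows of like level were not computed. No member had a mean of 200 FPKM or more, where 295 other rows had a median change of 0.59. No member was called in the authors' deposited table, against 1.45% of rows, and the lowest q-value among the members was 0.304. Its p-value was under 0.05 for 3 members, Mrpl54, Mrpl13 and Mrpl36, a share below the 7.09% of all rows. In that table the log2 fold change divided by the test statistic had a median of 0.19 over the members, and the statistic was under 1 in size for 61 of the 76.

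Mean levels ran from 6.18 to 165 FPKM in the large subunit and from 5.95 to 157 FPKM in the small subunit, nearly the same range, as the plot of all members by library shows. Mrpl42, on chromosome 10 from 94943440 to 94964561 (mm9) and specific to mitochondrial ribosomes, was the most abundant member, at 186 FPKM in siLinc-Yy1 and 145 FPKM in siNC. Mrpl13, a counterpart of a bacterial large subunit protein (chromosome 15, 55365650 to 55388867), measured 169 FPKM in siLinc-Yy1 and 125 FPKM in siNC. Mrpl54, specific to mitochondria (chromosome 10, 80727467 to 80729671), measured 139 FPKM in siLinc-Yy1 and 102 FPKM in siNC. These were the 3 members at least 25% higher, with log2 fold changes of 0.35, 0.44 and 0.44. All 3 were among the 5 most abundant members.

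**Figure D1:**
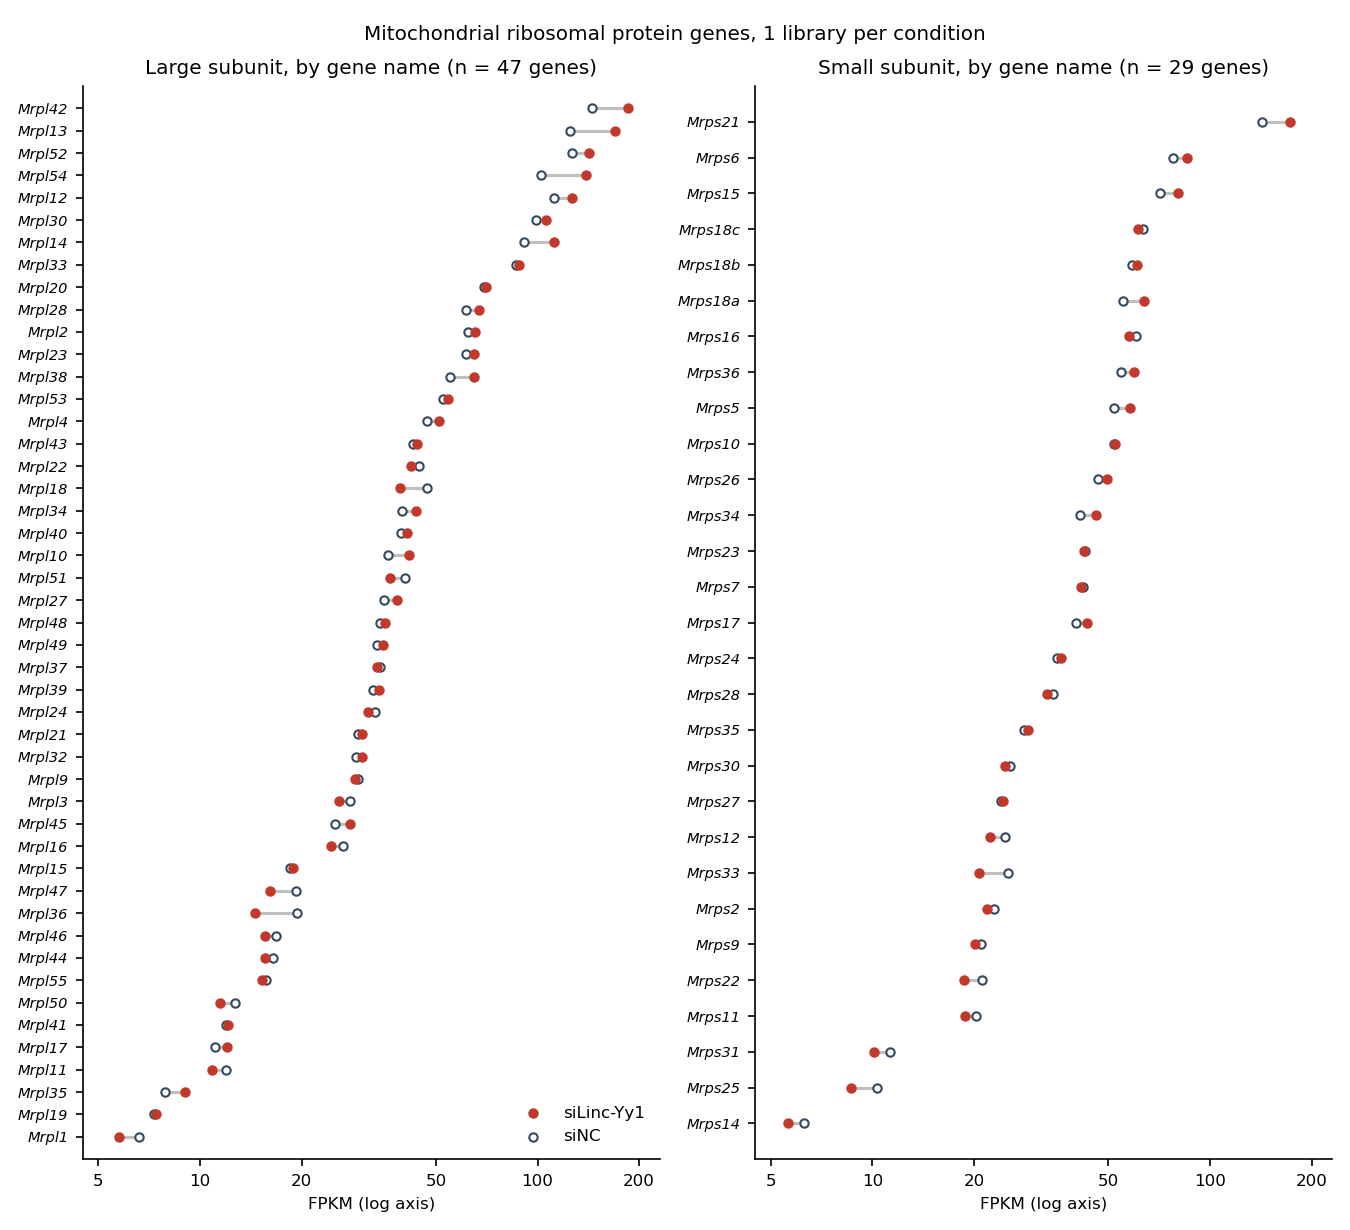
FPKM (log axis) of each of the 47 large subunit genes (left) and 29 small subunit genes (right), ordered by mean level, with filled points for the siLinc-Yy1 library and open points for the siNC library. Most pairs of points nearly touch, and the widest gaps are those of Mrpl13, Mrpl54, Mrpl42 and, in the other direction, Mrpl36.

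Next in order of change came Mrpl14, at 112 FPKM in siLinc-Yy1 and 91.5 FPKM in siNC, then Mrpl38 with a log2 fold change of 0.23, and Mrpl10 at 41.5 FPKM in siLinc-Yy1 and 36.1 FPKM in siNC. Mrpl10 and Mrpl12 form the stalk of the large subunit, which recruits the GTP-binding translation factors. The stalk partner Mrpl12 measured 126 FPKM in siLinc-Yy1 and 112 FPKM in siNC. Mrpl52, a mitochondria-specific protein and the 4th most abundant member, was at 142 FPKM in siLinc-Yy1 and 127 FPKM in siNC, a change of 0.17 that became -0.12 less the level trend described further on. Of the genes near the exit of the new chain, Mrpl23 was at 64.7 FPKM in siLinc-Yy1 and 61.4 FPKM in siNC, and Mrpl45, which anchors the ribosome at the inner membrane, at 27.8 and 25.1 FPKM in the same order. All of these lay above 0 on the log2 scale, by 0.075 to 0.29.

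At the other end, Mrpl36 had the lowest change of the 76. Mrpl36 encodes a small zinc-binding protein of the large subunit (chromosome 13, 73468457 to 73469626), and it measured 14.6 FPKM in siLinc-Yy1 and 19.4 FPKM in siNC, a ratio of 0.752. Mrpl18, a counterpart of the bacterial protein that binds 5S ribosomal RNA, was at 39.1 FPKM in siLinc-Yy1 and 47.2 FPKM in siNC. Mrpl47 measured 16.2 FPKM in siLinc-Yy1 and 19.3 FPKM in siNC. Mrpl1, Mrpl51 and Mrpl50 lay between -0.17 and -0.14 on the log2 scale. Mrpl11, a counterpart of a bacterial stalk-base protein and among the 4 scarcest of the large subunit, measured 10.8 FPKM in siLinc-Yy1 and 11.9 FPKM in siNC, a change of -0.13. Mrpl1 was also the least abundant gene of the large subunit, at 5.76 FPKM in siLinc-Yy1 and 6.59 FPKM in siNC. Just above it, Mrpl19 (7.40 FPKM in siLinc-Yy1, 7.32 FPKM in siNC) and Mrpl35 (9.06 and 7.89 FPKM in that order) did not share that direction.

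Small subunit genes varied less. Mrps21, on chromosome 3 from 95666575 to 95674542, was the most abundant, at 172 FPKM in siLinc-Yy1 and 143 FPKM in siNC, and had the highest change, 0.27. Mrps18a, Mrps15, Mrps5, Mrps34 and Mrps6 followed, between 0.14 and 0.20. Mrps5, a counterpart of a bacterial protein at the messenger RNA entrance, measured 57.8 FPKM in siLinc-Yy1 and 52.0 FPKM in siNC. The lowest was Mrps33, at 20.7 FPKM in siLinc-Yy1 and 25.2 FPKM in siNC, with a change of -0.27. Mrps25 (8.65 FPKM in siLinc-Yy1, 10.3 FPKM in siNC), Mrps22 (18.7 and 21.2 FPKM in the same order) and Mrps31 (10.1 and 11.3 FPKM) lay between -0.23 and -0.15. Mrps12, the counterpart of the bacterial protein that governs decoding accuracy, was at 22.3 FPKM in siLinc-Yy1 and 24.7 FPKM in siNC. Mrps14 was the scarcest of all members, at 5.64 FPKM in siLinc-Yy1 and 6.26 FPKM in siNC. No small subunit gene was 25% higher or 20% lower.

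A few proteins do not sit where their names place them. The products of Mrps18a and Mrps30 are found in the large subunit, and the product of Mrps36 is now known as a component of the 2-oxoglutarate dehydrogenase complex. The 3 members of the Mrps18 family, which descend from the same bacterial protein, were close in level. Mrps18a measured 63.7 FPKM in siLinc-Yy1 and 55.1 FPKM in siNC, Mrps18b 60.8 and 58.7 FPKM in that order, and Mrps18c 61.1 and 63.2 FPKM. Their changes were 0.20, 0.048 and -0.049. Mrps30 measured 24.8 FPKM in siLinc-Yy1 and 25.6 FPKM in siNC, and Mrps36 59.4 FPKM in siLinc-Yy1 and 54.6 FPKM in siNC.

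Between the subunits the difference was small beside the spread within each. The 47 large subunit genes had a median change of 0.049, with quartiles of -0.072 and 0.13, and 31 were above 0 and 16 below. The 29 small subunit genes had a median of -0.013, with quartiles of -0.074 and 0.11, and 14 were above 0 and 15 below. The medians differed by 0.062, and by 0.030 once the level of each gene was allowed for. The sign of the large subunit median turned to -0.26 at equal summed FPKM and to -0.022 less the level trend, and that of the small subunit turned to 0.0078 when all rows were centred on their median. Summed levels were 2334 FPKM in siLinc-Yy1 and 2132 FPKM in siNC for the large subunit, a ratio of 1.09, and 1268 and 1211 FPKM in the same order for the small subunit, a ratio of 1.05. Counting Mrps18a and Mrps30 with the large subunit left both medians as they were.

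A second division followed the standard names of the proteins, which mark them as shared with bacterial ribosomes or as mitochondrial. It is a division by name and not by descent, since Mrps18a and Mrps18b count as mitochondrial and Mrps18c as shared, and it keeps Mrps36 among the mitochondrial ones. The 46 members with a bacterial name had a median change of 0.022, and the 30 with a mitochondrial name had 0.045. Within the large subunit the 17 with a mitochondrial name had a median of 0.050 and the 30 with a bacterial name 0.033. In the small subunit the 13 with a mitochondrial name had 0.020 and the 16 with a bacterial name -0.035. The classes overlapped almost entirely, from -0.27 to 0.44 for mitochondrial names and from -0.39 to 0.44 for bacterial names.

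The change of a member followed its level. Across the 76 members, the log2 mean FPKM and the change had a Pearson correlation of 0.65 and a Spearman correlation of 0.66, a description over genes of the same pair of libraries. The other 11716 rows showed the same tendency, at 0.36 and 0.47. Members of 10 to 20 FPKM had a median of -0.11 over 13 genes, where 2506 other rows of that level had -0.058. Members of 20 to 50 FPKM had 0.025 over 34 genes, against 0.026 over 2701 other rows. Those of 50 to 100 FPKM had 0.074 over 16 genes, against 0.15 over 1004 other rows, and 3 of the 16 lay above that median. The 8 members of 100 to 200 FPKM had 0.28, against 0.29 over 439 other rows, and the 5 members of 5 to 10 FPKM had -0.13, against -0.092 over 2127.

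**Figure D2:**
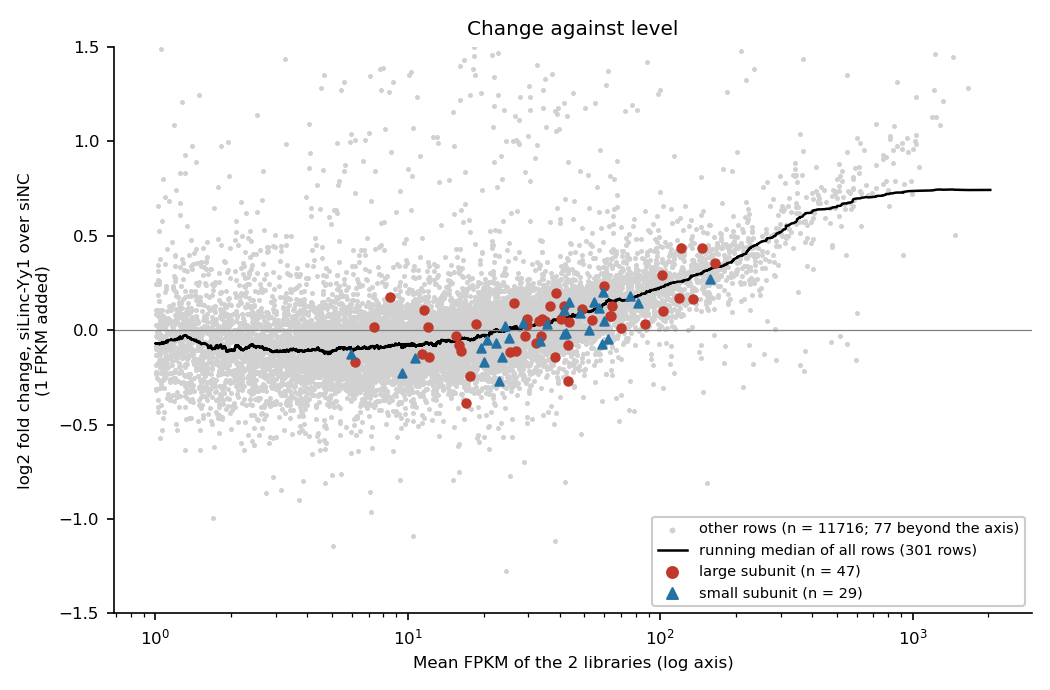
Log2 ratio of siLinc-Yy1 to siNC (1 FPKM added) against the mean FPKM of the libraries (log axis) for large subunit genes (circles), small subunit genes (triangles) and the other 11716 rows (grey), with the running median of rows ordered by level as a line. Members run along the line, from about 6 to 165 FPKM, and slightly more lie under it than above it.

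Set against genes of their own level, the members lay slightly low. Of the 76, 30 were above the median of the other rows in their level class, and 40 lay within the quartiles of those rows. The level trend was a running median of the change over neighbouring rows by mean FPKM. Less this trend, the members had a median of -0.040, with 29 above 0 and 46 below, where 49.9% of all rows were above 0. The large subunit had -0.022, with 20 above and 26 below, and the small subunit -0.052, with 9 above and 20 below. The correlation with level was then -0.035. By this measure Mrpl13 stood at 0.13, Mrpl54 at 0.18 and Mrpl42 at 0.021. The lowest were Mrpl36 at -0.34, Mrpl18 at -0.33 and Mrps33 at -0.26. The highest was Mrpl35 at 0.26, a scarce gene with a positive change.

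In 9 members the locus of the table also holds another gene, and how reads were divided between them is not known here. They were Mrpl19, Mrpl24, Mrpl41, Mrpl48, Mrpl49, Mrpl53, Mrps6, Mrps25 and Mrps27. Mrpl41, on chromosome 2 from 24817942 to 24830618, measured 12.1 FPKM in siLinc-Yy1 and 11.9 FPKM in siNC, and Wdr85 in the same locus 4.98 and 5.05 FPKM in that order. Mrpl48 (35.4 FPKM in siLinc-Yy1, 34.2 FPKM in siNC) shares its locus with Rab6a (36.1 and 34.7 FPKM). Without these 9 the median over the members was 0.033, as before.

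Mitoribosomal proteins that carry other names were somewhat higher. The list held 7 genes in the table, with a median of 0.12, 5 above 0 and 2 below, and the median was 0.062 less the level trend. Of all rows 45.4% were above 0 and 7.79% at least 25% higher. None of the 7 was called in the authors' deposited table. Gadd45gip1, a large subunit protein also known as CRIF1, was the only one at least 25% higher, at 70.9 FPKM in siLinc-Yy1 and 55.3 FPKM in siNC. Ict1, a peptidyl-tRNA hydrolase built into the large subunit, measured 60.6 FPKM in siLinc-Yy1 and 51.1 FPKM in siNC. Chchd1 was at 59.3 FPKM in siLinc-Yy1 and 53.4 FPKM in siNC, and the GTP-binding small subunit protein Dap3 at 15.9 and 15.6 FPKM. The pentatricopeptide repeat protein Ptcd3 was at 20.6 FPKM in siLinc-Yy1 and 22.8 FPKM in siNC.

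Genes that serve the ribosome are given beside the 45.4% of all rows that lay above 0, and 49.9% less the level trend. Of 12 measured mitochondrial translation factors 2 were above 0 and 10 below, with a median of -0.10, or -0.033 less the level trend, by which 4 were above 0 and 8 below. Tufm, the elongation factor that delivers aminoacyl-tRNA, was above 0 at 95.8 FPKM in siLinc-Yy1 and 80.4 FPKM in siNC. Its nucleotide exchange factor Tsfm measured 26.4 FPKM in siLinc-Yy1 and 30.6 FPKM in siNC, and Taco1, a translational activator of cytochrome oxidase subunit I, 11.6 and 14.0 FPKM in that order. The release factor-like gene listed as 2810006K23Rik was the other one above 0, at 16.7 FPKM in siLinc-Yy1 and 12.9 FPKM in siNC. Of 22 assembly and ribosomal RNA modification factors 8 were above 0 and 14 below, with a median of -0.081, or 0.0051 less the level trend, by which 11 were above 0 and 11 below. Rnmtl1, a methyltransferase of the large ribosomal RNA, was the lowest, at 5.72 FPKM in siLinc-Yy1 and 7.84 FPKM in siNC. The dimethyltransferase of the small ribosomal RNA, Tfb1m, measured 6.99 FPKM in siLinc-Yy1 and 6.85 FPKM in siNC.

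Among 11 genes of mitochondrial transcription and RNA processing 2 were above 0 and 9 below, with a median of -0.13, or -0.073 less the level trend, and 1 of 11 lay above the trend. Pnpt1, the mitochondrial polynucleotide phosphorylase, measured 13.4 FPKM in siLinc-Yy1 and 17.1 FPKM in siNC. Rg9mtd1, a subunit of mitochondrial RNase P, was at 8.73 and 10.8 FPKM in that order. Tfam, which packages mitochondrial DNA and starts its transcription, was at 9.57 FPKM in siLinc-Yy1 and 10.8 FPKM in siNC. Polrmt, the mitochondrial RNA polymerase, measured 17.5 FPKM in siLinc-Yy1 and 18.2 FPKM in siNC, and Lrpprc, which stabilises mitochondrial messenger RNAs, 18.2 and 20.4 FPKM in that order. Of 17 mitochondrial aminoacyl-tRNA synthetases 4 were above 0 and 13 below, with a median of -0.041. Less the level trend 8 were above 0 and 9 below, with a median of -0.014. Lars2 stood apart from them at 597 FPKM in siLinc-Yy1 and 143 FPKM in siNC, while Yars2 was at 7.28 FPKM in siLinc-Yy1 and 10.1 FPKM in siNC. None of these genes, Lars2 included, was called in the authors' deposited table.

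**Figure D3:**
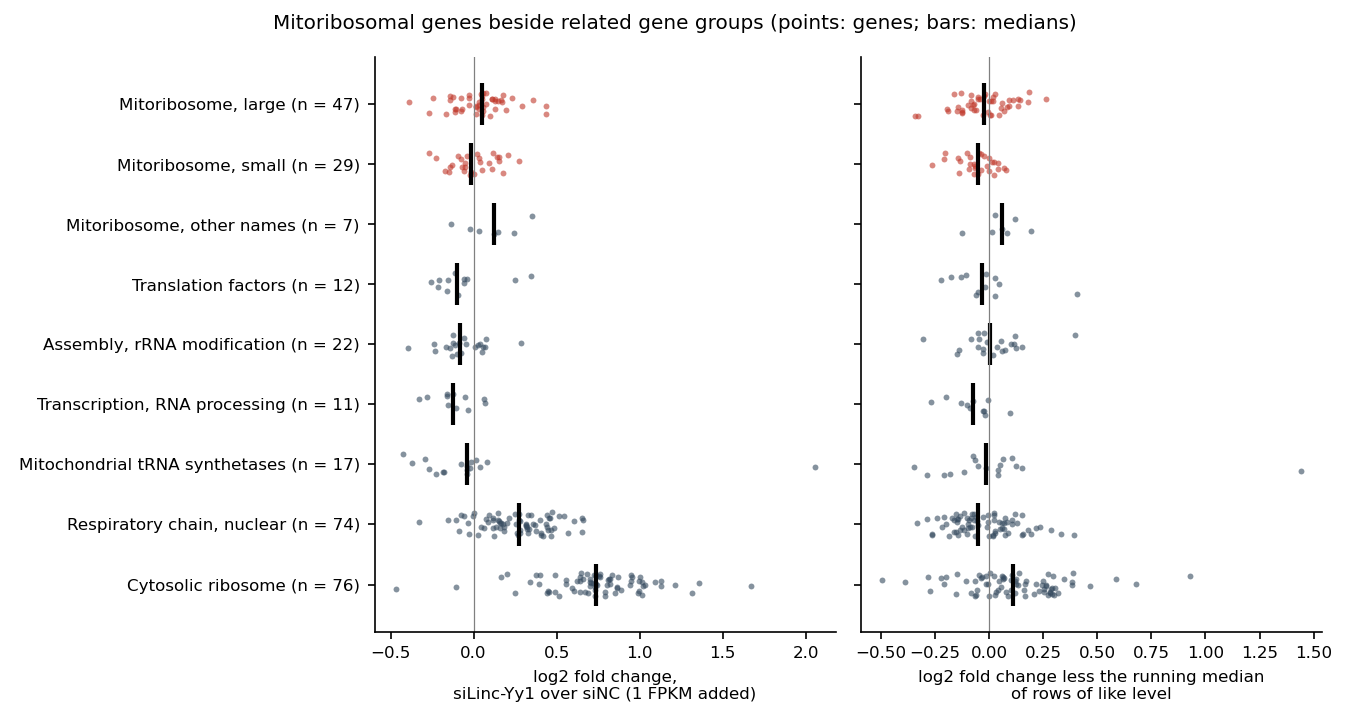
Log2 ratios of siLinc-Yy1 to siNC (left) and the same less the running median of rows of like level (right), 1 point per gene and a bar at the median of each group. The medians of the mitoribosomal subunits, 0.049 and -0.013, lie near 0 on the left, that of the cytosolic ribosome at 0.74.

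Of the gene lists described here, the cytosolic ribosome had the highest median change. Its 76 proteins measured here had a median of 646 FPKM in siLinc-Yy1 and 404 FPKM in siNC, and a median change of 0.74, with 74 above 0 and 71 at least 25% higher, where 45.4% and 7.79% of all rows were. Their summed FPKM had a ratio of 1.81 between siLinc-Yy1 and siNC, against 1.08 for the mitoribosomal members, and the most abundant of those reached a mean of 165 FPKM. The level trend at the levels of the cytosolic genes had a median of 0.67. Less this trend their median was 0.11, with 54 above 0 and 22 below, against 49.9% of all rows above 0. The running median was taken over all rows, these genes among them, so it cannot tell level from gene group here. Nuclear-encoded subunits of oxidative phosphorylation, whose mitochondrial partners the mitoribosome makes, came between them. Their 74 genes had medians of 151 FPKM in siLinc-Yy1 and 115 FPKM in siNC and a median change of 0.27, and less the level trend -0.052, close to the -0.040 of the mitoribosomal members. The running median takes in both of these groups too. Members made up 0.788% of the summed FPKM in siLinc-Yy1 and 0.914% in siNC. Their own sum was 3602 FPKM in siLinc-Yy1 and 3343 FPKM in siNC, and that of all rows 457250 and 365650 FPKM in that order. As deposited, the lower share went with a larger total and not with a lower sum of the members. The scaling between the libraries is not known, and at equal summed FPKM the median change of the members was -0.28. The share alone does not tell a larger total from a lower sum of the members.

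Promoters were read from RefSeq for 67 of the 76 members (GRCm38.p6, 250 bases before to 50 after each start). Mrpl4, Mrpl13, Mrpl15, Mrpl19, Mrpl38, Mrpl54, Mrps28, Mrps34 and Mrps35 had no entry under these names in the promoter set and were not used here. They include Mrpl13 and Mrpl54, the members with the highest changes, so the medians by word further on lack them. Nuclear genes of mitochondria are known for binding sites of NRF1, of GABP, which belongs to the ETS family, and of YY1, whose core word contains ATGGC. Exact words were searched on both strands. The YY1-type word AAGATGGC was found in 12 of 67 members, 17.9%, against 3.19% of all 27025 genes with a promoter and 5.32% of the 8151 other genes past the expression filter. A longer-tailed word, GATGGCGG, which can overlap it, was found in 5 members, 7.46%, against 1.97% and 4.31%. All 5 are among the 12 members with AAGATGGC, and in each the words overlap, so it marks no further member. The NRF1-type word GCGCANGCG was in 15 members, 22.4%, against 7.03% and 15.8%. The ETS-type word CCGGAAGT was in 12 members, 17.9%, against 4.31% and 9.42%. At least 1 of these words was present in 36 of 67 members, 53.7%, against 14.0% of all genes and 28.5% of the other expressed ones. The 8151 other genes are those with a promoter entry under the same name, and they were not matched to the members by level. A match is a word in the sequence and not a binding site.

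The YY1-type word often stood just after the start. In 8 of the 12 members, 66.7%, it stood on the gene's own strand after the transcript start, as it did in 209 of the 434 other expressed genes that hold it, 48.2%. In the 8 members it began between bases 12 and 37. These 8 stretches of 30 bases are shown because they share the word and its place, with the word in capitals. The word contains ATG, and whether it spans the start codon was not tested.
Mrps18a (chr17:46111004-46111033, + strand): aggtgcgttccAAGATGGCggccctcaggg
Mrps27 (chr13:99344789-99344818, + strand): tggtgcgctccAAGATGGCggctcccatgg
Mrpl49 (chr19:6057721-6057750, - strand): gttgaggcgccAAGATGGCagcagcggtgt
Mrps7 (chr11:115604147-115604176, + strand): tgacagcggccAAGATGGCtgcccccgcgc
Mrpl35 (chr6:71823743-71823772, - strand): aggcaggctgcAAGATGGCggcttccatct
Mrpl37 (chr4:107066822-107066851, - strand): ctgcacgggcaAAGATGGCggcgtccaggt
Mrpl42 (chr10:95501904-95501933, - strand): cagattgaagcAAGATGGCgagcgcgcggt
Mrps24 (chr11:5707652-5707681, - strand): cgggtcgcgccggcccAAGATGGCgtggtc

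Of the 4 members with the word on the opposite strand, 3 have it inside the transcript of a divergent neighbour. Counted along the neighbour, it begins at base 31 of Psma2 for Mrpl32, at base 46 of Sars2 for Mrps12, and at base 59 of Mrpl46 for Mrps11. In Mrpl36, the member with the lowest change, it begins 30 bases before the start, on the opposite strand. The 120 bases before that start are shown for this reason, with the word in capitals.
Mrpl36 (chr13:73330889-73331008, + strand): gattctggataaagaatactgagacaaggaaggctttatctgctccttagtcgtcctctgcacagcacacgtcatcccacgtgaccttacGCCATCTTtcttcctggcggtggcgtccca

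NRF1-type and ETS-type words lay mostly before the start, as does most of the searched window. On the gene's own strand after the start, the NRF1-type word stood in 2 of 15 members, 13.3%. Of the other expressed genes that hold this word, 11.6% had it there. For the ETS-type word this was 0 of 12 members, against 15.2% of the other expressed genes that hold it. Examples of each are shown with the word in capitals, for the stalk proteins Mrpl10 and Mrpl12, whose NRF1-type words lie on the opposite strand, for Mrpl9, where the word occurs on both strands with an offset of 1 base, and for an ETS-type word in Mrpl3 and Mrps22.
Mrpl10 (chr11:97041436-97041465, + strand): gcccagctccaCGCATGCGCatagcggccc
Mrpl12 (chr11:120484546-120484575, + strand): tattgtctccgCGCCTGCGCgtcgcaccgc
Mrpl9 (chr3:94443216-94443335, + strand): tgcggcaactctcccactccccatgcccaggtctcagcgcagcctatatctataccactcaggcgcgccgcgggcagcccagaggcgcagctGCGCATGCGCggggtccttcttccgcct
Mrpl3 (chr9:105053238-105053267, + strand): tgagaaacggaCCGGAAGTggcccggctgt
Mrps22 (chr9:98601672-98601701, - strand): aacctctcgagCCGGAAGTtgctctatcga

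**Figure D4:**
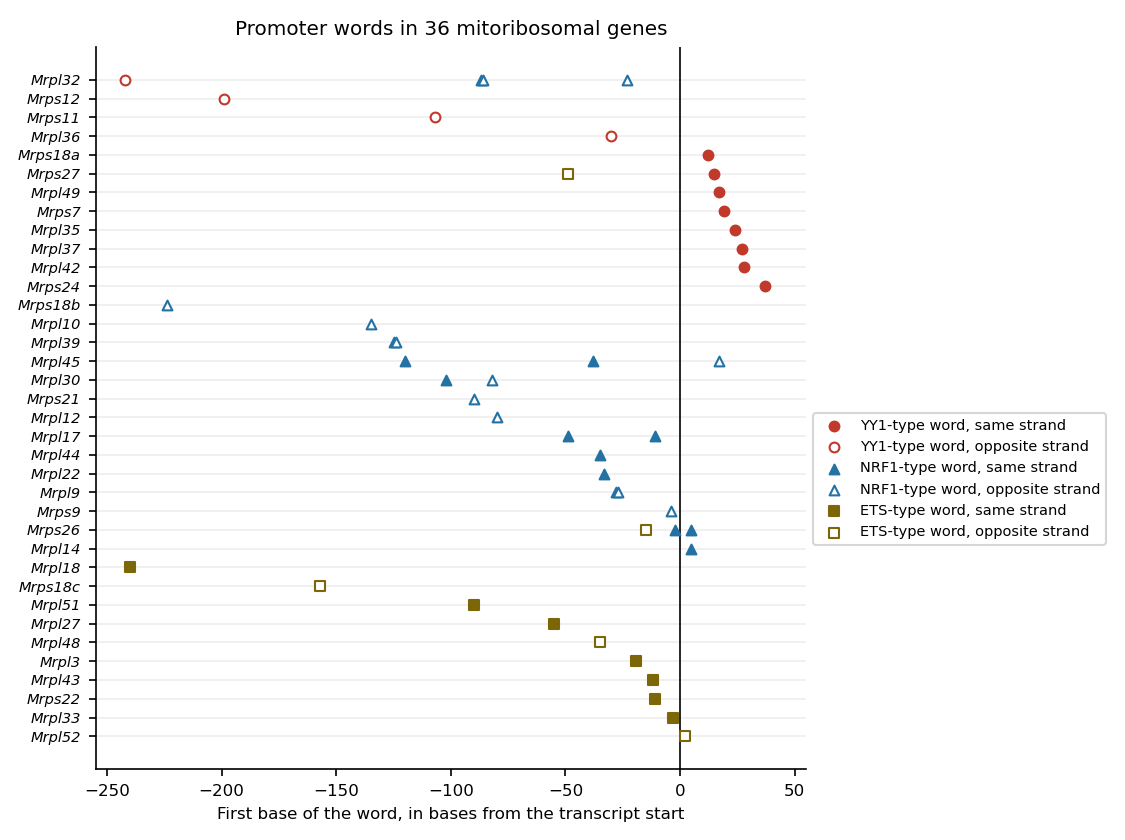
Position of each AAGATGGC, NRF1-type and ETS-type word in the 36 member promoters with at least 1, in bases from the transcript start (0). Filled marks are for the gene's own strand and open marks for the opposite strand. The word GATGGCGG is not drawn. YY1-type words (circles) on the gene's own strand sit between bases 12 and 37 after the start in 8 genes, while NRF1-type (triangles) and ETS-type (squares) words are mostly upstream. Most of the searched window also lies upstream.

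The 12 members with AAGATGGC had a median change of 0.027, against 0.017 for the 55 without it, and 0.0011 against -0.052 less the level trend. For the NRF1-type word the medians were 0.092 in 15 members with it and -0.0049 in 52 without, and for the ETS-type word 0.026 in 12 and 0.017 in 55. Less the level trend they were -0.022 with and -0.064 without the NRF1-type word, and -0.13 with and -0.049 without the ETS-type word, so that the order turned for the ETS-type word. These differences have no test. The 8 members with the YY1-type word after the start ran from -0.028 to 0.35. The factors themselves were at like levels. Yy1 measured 30.9 FPKM in siLinc-Yy1 and 28.6 FPKM in siNC, Nrf1 19.6 and 19.9 FPKM in that order, and Gabpa, the DNA-binding subunit of GABP, 15.7 and 15.3 FPKM.

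Divergent neighbours, transcribed away from a member from a start within 1000 bases, were found for 25 of the 67 members, in 24 pairs. The share over all genes with a promoter was not computed, so this count is not set against other genes. The pair Mrps11 and Mrpl46 joins both subunits, with starts 42 bases apart. Mrps11 measured 18.9 FPKM in siLinc-Yy1 and 20.2 FPKM in siNC, and Mrpl46 15.6 and 16.8 FPKM in that order, with changes of -0.095 and -0.11. In 22 pairs both genes had a mean of at least 1 FPKM, and the changes had the same sign in 12 of them. Of all rows 45.4% were above 0, and pairs of other genes were not counted. Mrpl49 (34.8 FPKM in siLinc-Yy1, 33.4 FPKM in siNC) lies beside Fau, which encodes a cytosolic ribosomal protein and measured 730.5 and 433 FPKM in that order. Mrpl30 (106 FPKM in siLinc-Yy1, 98.8 FPKM in siNC) has its start 66 bases from Mitd1, at 17.1 and 23.7 FPKM in that order. Mrpl27 (38.4 FPKM in siLinc-Yy1, 35.0 FPKM in siNC) starts 48 bases from the DNA repair gene Eme1, at 28.7 FPKM in siLinc-Yy1 and 18.9 FPKM in siNC. Mrps12 (22.3 FPKM in siLinc-Yy1, 24.7 FPKM in siNC) is paired with Sars2, the mitochondrial seryl-tRNA synthetase, at 7.73 FPKM in siLinc-Yy1 and 7.49 FPKM in siNC. These 4 pairs were picked after their values were seen.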

How the data were processed

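A single gene-level table from Cuffdiff, deposited in duplicate, holds both libraries. The FPKM values, the test statistic (a score) and the p-value and q-value columns were made by the authors, per the file headers. Read alignment and quantification used TopHat2 (2.0.4), Cufflinks (2.1.1) and Cuffdiff (2.0.4) on mm9, per the submitters' processing notes. Annotation, strand use and scaling between libraries were not stated there. Table starts were converted to 1-based positions.

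Changes, counts, level classes and the running median were computed with pandas 2.3.3. The steps for the change and the running median were tested on simulated data, with planted changes larger than that of any member. With 1 library per condition no test was run. FPKM values of chemoreceptor genes at loci under 1500 bases were whole multiples of 1 fragment, within 0.02, in at most 58.8% (siLinc-Yy1) and 56.3% (siNC) of rows for any depth of 20 to 100 M, so depth is unknown and no count test was run.

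Named by rule were 35 members: per subunit the 6 highest and 6 lowest changes, the 4 highest and 4 lowest levels, and over both subunits 10 chosen for their roles. Others were named after their values were seen, and members and lists were chosen with earlier results of these data known. Alternatives were other pseudocounts, filters, scalings, folds and row sets.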

Additional observations from a re-analysis of the deposited data

How the results depend on the processing

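No paired analysis was possible because each condition has 1 library. The median of all members, 0.033, was 0.029 to 0.053 with pseudocounts of 0.1 and 5 FPKM, no filter, a filter of 5 FPKM, centring, status OK alone, and without shared loci or pseudogene rows. It turned to -0.28 at equal summed FPKM, where the median of all rows was -0.30, and to -0.040 less the running median. The number above 0 went to 3 and 29 in that order. The large subunit median turned to -0.26 and -0.022 under these settings; the small subunit median moved to -0.33 at equal summed FPKM and turned to 0.0078 when centred. Their difference lay between 0.030 and 0.067 in every setting run. The 3 members at least 25% higher became 0 at equal summed FPKM, less the running median, at folds of 1.5 and 2, and by the authors' calls. The 1 lower became 0 with a pseudocount of 5 FPKM, at both folds and by those calls, 2 less the running median and 31 at equal summed FPKM. The share of all rows past the cutoff at equal summed FPKM was not computed. Of 35 named members, 19 kept their sign at equal summed FPKM and 30 less the running median. Depth is unknown, so low members such as Mrps14 have no counting interval.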
